A study of Mus musculus with 17 samples.

Results

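Zinc enters the cytosol through ZIP importers of the SLC39 family, leaves it through ZnT exporters of the SLC30 family, which move it into organelles or out of the cell, and is buffered in the cytosol by metallothioneins. In the pancreatic β cell ZnT8, the product of *Slc30a8*, loads zinc into the insulin granule, where it crystallises with insulin. Metallothionein genes are among the best known targets of MTF1, the metal-responsive transcription factor that binds short metal response elements in their promoters. The 9 genes described here were chosen by name from these families: the exporters *Slc30a8*, *Slc30a1*, *Slc30a5* and *Slc30a7*, the importers *Slc39a7* and *Slc39a14*, and the metallothioneins *Mt1*, *Mt2* and *Mt3*. They are 9 of 78239 gene identifiers in one count table and of 73212 in another, and all 9 passed the filter on low counts in both, among 19137 and 20167 tested genes.

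Bulk RNA-seq of isolated islets from 17 male mice was analysed. The first table holds 3 mice in each of 4 groups on a C57BL6/N background: wildtype and *Pax4* R192H mice on standard chow diet (SCD) at 12 weeks of age, and both genotypes at 16 weeks after 4 weeks of high-fat diet (HFD). *Pax4* R192H mice were homozygous for a knock-in of the mouse codon that matches human R192H, in every cell of the body, and wildtype mice were their littermates. Age rose with the diet, so the effects of HFD and of age cannot be told apart. The second table holds 2 control and 3 *Pax4* βiKO mice at 20 weeks after 8 weeks of HFD. Both carried floxed *Pax4* alleles and received tamoxifen, and βiKO mice alone carried CreERT2 driven by the *Pdx1* promoter, so that Cre and loss of *Pax4* changed together. *Pax4* itself was listed at 0 counts in all 17 mice, so it checked no label, whereas *Esr1*, whose receptor domain is part of CreERT2, was at 265 to 298 CPM (counts scaled to a common library size) in the βiKO mice and at 0.706 and 0.53 in the controls.

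Totals were 24268157 to 42679645 counts per mouse in the first table and 28618835 to 31887537 in the second. Of all counts in the first table, 36.2% to 53.3% went to 2 identifiers without a gene symbol, and the normalisation factors ran from 0.692 to 0.823 in *Pax4* R192H mice on HFD against 0.89 to 1.11 in wildtype mice on HFD. The β cell markers were abundant throughout, with a summed level of 31350 to 99940 CPM. RNA of exocrine acinar cells was present in every preparation: 25 acinar genes summed to 36150 to 100500 CPM in *Pax4* R192H mice on HFD, against 16150 to 24390 in wildtype mice on HFD, 12630 to 25040 in the 6 mice on SCD, 24000 and 107200 in the controls and 16980 to 83140 in the βiKO mice. CPM values were scaled within each table, so levels are compared only within a table. By the quasi-likelihood test of edgeR, a gene was called when its p-value, adjusted over all tested genes by Benjamini-Hochberg, lay below 0.05 and its log2 fold change exceeded 0.5 in either direction. In bulk RNA, fewer cells of a type and less RNA per cell cannot be told apart.

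The promoters of 5 of these genes are shown because the results turn on the metallothioneins, 3 neighbours on chromosome 8 of which *Mt1* and *Mt2* had estimates of one sign on HFD and *Mt3* of the other, and because *Slc30a1* and *Slc30a5* are exporters whose promoters hold a match to a metal or unfolded protein response element. Sequences are from RefSeq on GRCm38.p6, read 5′ to 3′ on the gene's strand, and cover 250 bases before and 30 bases from the annotated start. Capitals mark each match on either strand to the metal response element core, TGCACNC or TGCGCNC, and in *Slc30a5* also to the unfolded protein response element TGACGTGG.
Mt1, chr8:94178839-94179118, plus strand: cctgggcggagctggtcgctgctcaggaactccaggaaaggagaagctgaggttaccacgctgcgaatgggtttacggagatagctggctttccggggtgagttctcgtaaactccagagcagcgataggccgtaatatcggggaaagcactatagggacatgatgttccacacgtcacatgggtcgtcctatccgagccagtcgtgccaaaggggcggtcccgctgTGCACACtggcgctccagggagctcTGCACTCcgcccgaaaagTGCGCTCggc
Mt2, chr8:94172368-94172647, plus strand: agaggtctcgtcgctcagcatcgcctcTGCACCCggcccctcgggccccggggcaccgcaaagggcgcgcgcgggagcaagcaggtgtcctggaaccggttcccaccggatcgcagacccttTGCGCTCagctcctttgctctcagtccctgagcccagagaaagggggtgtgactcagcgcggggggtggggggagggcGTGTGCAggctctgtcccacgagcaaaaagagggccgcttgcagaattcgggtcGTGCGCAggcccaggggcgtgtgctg
Mt3, chr8:94152357-94152636, plus strand: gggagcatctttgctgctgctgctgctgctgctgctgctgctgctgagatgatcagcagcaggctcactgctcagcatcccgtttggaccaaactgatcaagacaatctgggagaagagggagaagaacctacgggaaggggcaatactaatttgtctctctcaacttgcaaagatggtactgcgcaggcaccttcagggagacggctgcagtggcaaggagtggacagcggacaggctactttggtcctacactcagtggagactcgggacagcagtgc
Slc30a1, chr1:191906531-191906810, plus strand: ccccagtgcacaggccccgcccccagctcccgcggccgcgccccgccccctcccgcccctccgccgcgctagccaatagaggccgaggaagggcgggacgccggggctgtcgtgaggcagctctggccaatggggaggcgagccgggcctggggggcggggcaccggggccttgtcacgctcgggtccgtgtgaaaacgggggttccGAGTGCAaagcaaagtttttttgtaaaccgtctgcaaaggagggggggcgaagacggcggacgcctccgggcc
Slc30a5, chr13:100833398-100833677, minus strand: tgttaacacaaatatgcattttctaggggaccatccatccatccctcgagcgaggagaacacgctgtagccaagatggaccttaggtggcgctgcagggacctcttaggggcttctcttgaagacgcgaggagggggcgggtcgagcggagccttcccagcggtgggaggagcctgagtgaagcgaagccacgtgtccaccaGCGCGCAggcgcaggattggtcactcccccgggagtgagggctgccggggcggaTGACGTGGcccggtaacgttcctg

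*Mt2* held 4 matches to the metal response element core in this window and *Mt1* held 3, while *Mt3* held 0. Of all 32851 promoters in the same table, 24.1% held at least 1 match, 1.73% at least 3 and 0.405% at least 4. With the start as position 1 and no position 0, the matches of *Mt1* began at positions -23, 3 and 21, and those of *Mt2* at -223, -128, -50 and 5. Other *Mt1* transcripts in GENCODE M21 start downstream of this window, at 94179211 and 94179241, and the GENCODE start of *Mt2*, 94172664, also lies past its window, so a window is not the promoter of each transcript. *Slc30a1* held 1 match, at -43 on the opposite strand. *Slc30a5* held 1 match at -48, also on the opposite strand, and a match to TGACGTGG at position 7, an 8-letter word that 0.648% of promoters held. The windows of *Slc30a7* and *Slc39a7* held 0 matches to either element, and the ER stress response element, searched on both strands by its full consensus, was found in 0 of the 7 windows read, against 0.116% of promoters. A match describes letters in a window and not a bound site.

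Per kb of exon, *Slc30a8* was the most abundant of the 9 genes in every group and *Mt3* the least. In wildtype mice on SCD the median level per kb, in CPM per kb, was 301 for *Slc30a8*, 51.4 for *Mt1*, 48.2 for *Slc39a7*, 11.3 for *Slc30a5*, 9.11 for *Mt2*, 5.01 for *Slc30a7*, 2.72 for *Slc30a1*, 1.37 for *Slc39a14* and 0.327 for *Mt3*. The ranges of *Mt1* and *Slc39a7* overlapped there, and those of all other neighbours in that order did not. In *Pax4* R192H mice on HFD *Slc39a7* stood above *Mt1*, at 61.9 to 71.5 CPM per kb against 19.2 to 23.2, and *Slc30a7* above *Mt2*, at 6.10 to 7.69 against 2.78 to 5.57, without overlap in either pair. In wildtype mice on HFD *Slc39a7* and *Mt1* overlapped, at 52.7 to 65.2 against 40.9 to 53.3 CPM per kb, and *Mt2* lay above *Slc30a7*, at 7.02 to 11.4 against 4.62 to 5.55. In the second table *Mt1* lay above *Slc39a7* in controls without overlap, and in βiKO mice the ranges of the pair overlapped. Length matters for this order: by the longest transcript in place of the union of exons, *Slc39a14* in wildtype mice on SCD had a median of 2.83 and *Slc30a1* 2.72, the reverse of their order above, with overlapping ranges of 2.77 to 2.92 and 2.698 to 3.10. The medians of the other 7 genes kept their order.

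**Figure D1:**
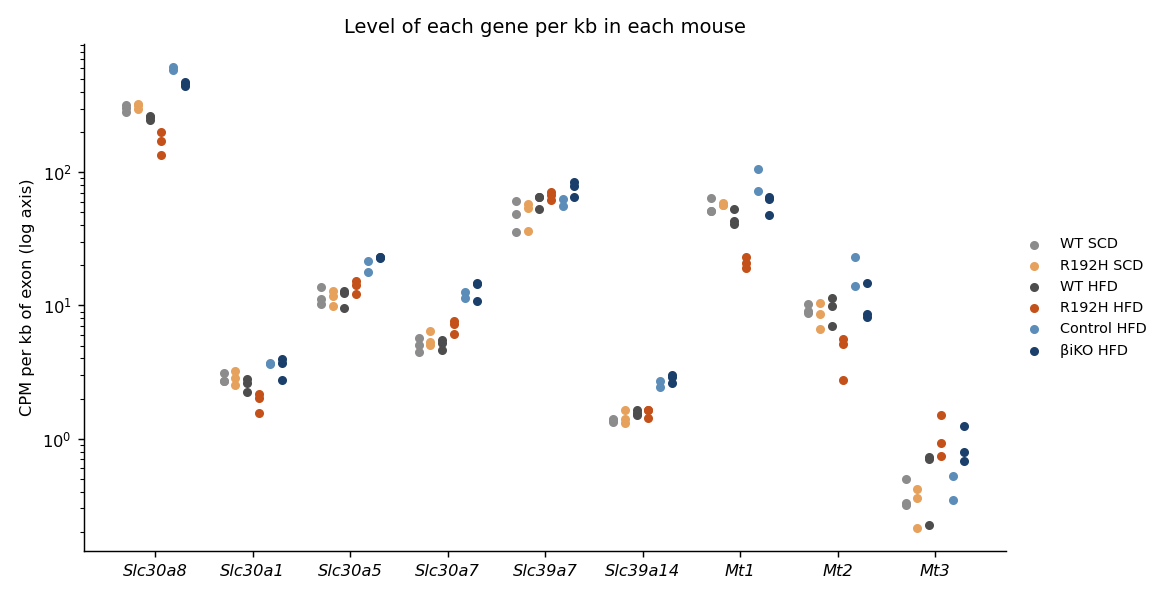
Level of each of the 9 genes in every mouse, in CPM per kb of exon on a log axis, with a point per mouse coloured by group. *Slc30a8* sits at the top, at 135 to 614 CPM per kb, and *Mt3* at the bottom, at 0.215 to 1.5; the 2 tables were scaled separately.

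On SCD the genotypes did not differ in any of the 9 genes by this test. The log2 fold changes of *Pax4* R192H against wildtype ran from -0.21 for *Mt3* to 0.15 for *Slc30a7*, with a median of 0.03 against -0.004 over all tested genes. In *Slc30a8* the difference was 0.06, with a 95% interval from -0.25 to 0.37, and in *Mt1* 0.05, from -0.23 to 0.34. The smallest p-value among the 9, unadjusted, was 0.312, and the values of the genotypes overlapped in all 9, against 7.83% of all tested genes without overlap. Called genes were 0 of 19137 (0%) in this comparison, and 629 (3.29%) had an unadjusted p-value below 0.05. DESeq2 called 26 genes, none of these 9 among them.

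On HFD *Slc30a8* and *Mt1* fell in *Pax4* R192H islets relative to wildtype islets, 2 of the 9 genes, where 437 of all 19137 tested genes were called (2.28%), 157 of them lower (0.82%). *Mt2* had a log2 fold change of the size of that of *Mt1* but did not pass the threshold. The remaining 6 genes were not called, and 4 of those had positive and 2 negative estimates. The groups did not overlap in 6 of the 9 genes, against 22.9% of all tested genes.

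*Slc30a8* (chr15:52295553-52335798, plus strand, in GENCODE M21 on GRCm38, the build of mm10), the granule zinc exporter, was measured at 515, 482 and 523 CPM in wildtype mice on HFD and at 267, 335 and 392 CPM in *Pax4* R192H mice on HFD. The groups did not overlap, and the *Pax4* R192H mouse with the lowest value, replicate 1, was also the mouse with the highest acinar sum, 100500 CPM against 36150 and 37520 in the other two. The log2 fold change was -0.61 (SE 0.14, 95% interval -0.92 to -0.30, adjusted p = 0.0432 by edgeR), or 0.654 times the wildtype level. On SCD the values were 556, 630.4 and 593 CPM in wildtype and 632, 638 and 589 in *Pax4* R192H mice, so that all 6 mice on SCD lay above all 6 on HFD. Leaving out 1 mouse ended the call in 5 of 6 fits, with adjusted p-values from 0.0591 to 0.161, and without the *Pax4* R192H replicate 1 the log2 fold change was -0.48. With the acinar markers as a covariate it was -0.30 with an adjusted p of 0.714, in a fit that called 0 of all tested genes. The acinar sums of the HFD groups do not overlap, so genotype and acinar RNA cannot be told apart in these mice.

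*Mt1* (chr8:94179082-94180327, plus strand), a main cytosolic zinc buffer, showed the largest called decrease of the 9 genes. It was at 53.5, 50.9 and 66.5 CPM in wildtype mice on HFD and at 24, 28.9 and 25.9 CPM in *Pax4* R192H mice on HFD. All 3 *Pax4* R192H mice on HFD lay below each of the other 9 mice of the table, which ranged from 50.9 to 79.3 CPM. The log2 fold change on HFD was -1.12 (SE 0.13, 95% interval -1.41 to -0.83, adjusted p = 0.00243 by edgeR), or 0.461 times the wildtype level, and it ranked 10 of 19137 by p-value. It was called in each of the 6 fits that left out 1 mouse of these groups, with log2 fold changes from -1.19 to -0.99. With the acinar markers as a covariate it was -0.86 and the adjusted p 0.358.

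*Mt2* (chr8:94172664-94173568, plus strand) encodes the second widely expressed metallothionein. It was at 5.84, 4.13 and 6.72 CPM in wildtype and at 3.04, 3.27 and 1.64 CPM in *Pax4* R192H mice on HFD, again without overlap between the groups. Its log2 fold change was -1.08 (SE 0.28, 95% interval -1.67 to -0.49), and its adjusted p of 0.0589 by edgeR did not reach the threshold, while DESeq2 gave 0.0065. An antisense transcript, *Gm45774*, overlaps *Mt2* and was at 0.629 to 1.15 CPM in *Pax4* R192H against 2.63 to 3.84 in wildtype mice on HFD. The kit was stranded, but the strand setting of the counting is not given in the sources used here, so reads of the pair may have been shared between them.

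*Mt3* (chr8:94152607-94154146, plus strand), the metallothionein best known from the brain, was measured by few reads. It was at 0.24, 0.785 and 0.755 CPM in wildtype and at 0.787, 1.6 and 0.987 CPM in *Pax4* R192H mice on HFD, from 9 to 38 counts per mouse. The log2 fold change was 0.92 with a 95% interval from -0.22 to 2.06 and an adjusted p of 0.432. It ran from 0.54 to 1.16 when 1 mouse at a time was left out. Its estimate thus had the opposite sign to those of *Mt1* and *Mt2*, with an interval that includes 0.

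Among the other exporters, *Slc30a1* (chr1:191906767-191913247, plus strand), which moves zinc out across the plasma membrane, was at 14.6, 11.8 and 13.7 CPM in wildtype and at 11.3, 10.6 and 8.24 CPM in *Pax4* R192H mice on HFD. The groups did not overlap and the log2 fold change was -0.41 (SE 0.16, adjusted p = 0.198). An antisense transcript over its start, *1700034H15Rik*, was at 0.347 CPM or less in the first table. *Slc30a7* (chr3:115938973-116007406, minus strand), an exporter of the early secretory pathway, was at 61.7, 57.9 and 51.4 CPM in wildtype and at 85.5, 67.9 and 81.2 in *Pax4* R192H mice, also without overlap, with a log2 fold change of 0.46 (SE 0.14, adjusted p = 0.11). *Slc30a5* (chr13:100802648-100833427, minus strand), another exporter of that pathway, had overlapping groups and a log2 fold change of 0.26 (95% interval -0.07 to 0.59).

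The 2 importers did not differ by this test. *Slc39a7* (chr17:34028269-34031682, minus strand), which releases zinc from the endoplasmic reticulum and Golgi, was at 136 to 169 CPM in wildtype and at 160 to 185 CPM in *Pax4* R192H mice on HFD, with a log2 fold change of 0.13 (95% interval -0.30 to 0.56). *Slc39a14* (chr14:70303469-70351425, minus strand), a plasma membrane importer of zinc and iron, was at 15.9 to 17.4 and 15.2 to 17.2 CPM, with a log2 fold change of -0.01 (95% interval -0.27 to 0.25). A transcript on the same strand, *Gm20427*, overlaps *Slc39a7* and was at 0 to 4.91 CPM in these 6 mice.

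**Figure D2:**
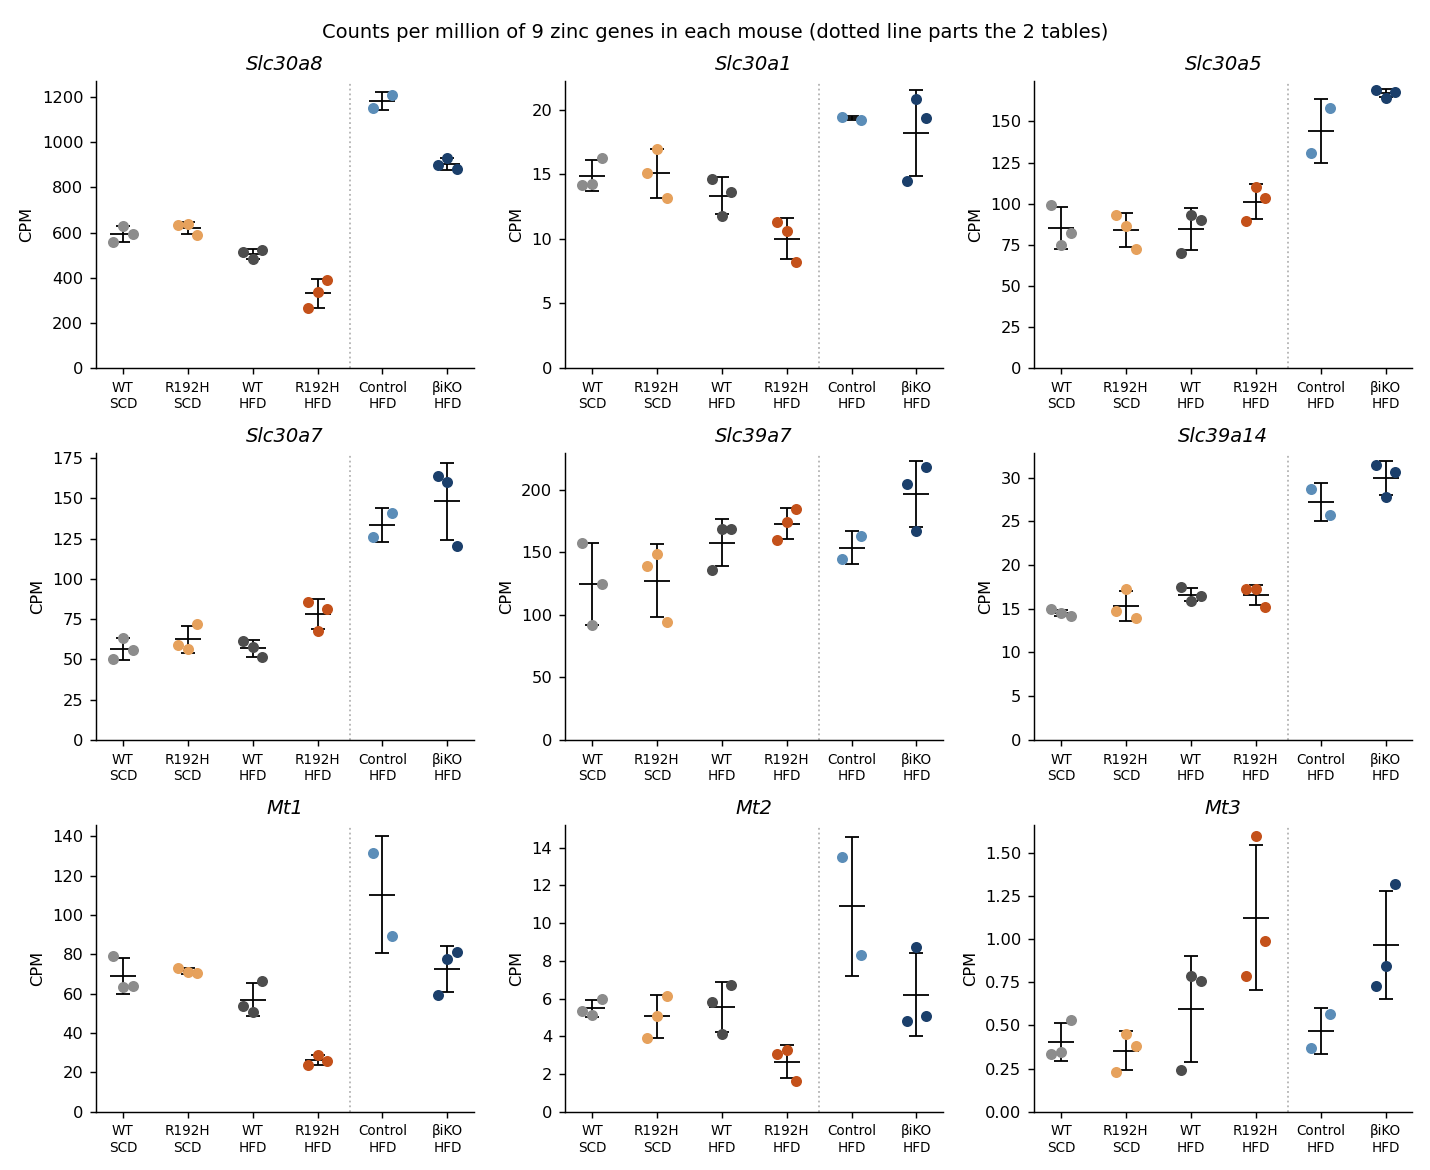
CPM of the 9 genes in each mouse, with points for mice, a horizontal bar for the group mean and whiskers for the SD; groups hold 3 mice, except 2 for the controls, and the dotted line parts the 2 tables. The 3 *Pax4* R192H mice on HFD sit at 24 to 28.9 CPM for *Mt1*, below the 50.9 to 66.5 of wildtype mice on HFD, and at 267 to 392 CPM for *Slc30a8*, below 482 to 523.

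The genotype effect differed between the diets for *Mt1*, the 1 gene of the 9 called for the interaction. The difference between its log2 fold changes on HFD and SCD was -1.17 (SE 0.19, 95% interval -1.58 to -0.76, adjusted p = 0.0421 by edgeR), where 25 of 19137 genes were called for the interaction (0.131%), 8 of them with a lower effect on HFD (0.0418%). *Slc30a8* had an interaction of -0.68 (SE 0.20, adjusted p = 0.217), and *Mt2* one of -0.95 (SE 0.38, adjusted p = 0.362). The interaction of *Mt1* kept its adjusted p below 0.05 in 2 of the 12 fits that left out 1 mouse, those without wildtype replicate 2 on SCD and without wildtype replicate 2 on HFD, and ranged from -1.26 to -1.04 over all 12. In the remaining 10 fits the adjusted p lay between 0.0591 and 0.121. With the acinar markers as a covariate the interaction was -0.89 (adjusted p = 0.607), in a fit that called 0 genes, and the 3 *Pax4* R192H mice on HFD also had the highest acinar sums of the table.

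Between the diets, wildtype mice showed no called change in the 9 genes, and *Pax4* R192H mice showed 4, all lower on HFD. These comparisons share the HFD groups with the one above and are given for their own values. In wildtype mice the log2 fold changes of HFD against SCD ran from -0.28 for *Mt1* to 0.53 for *Mt3*, with adjusted p-values of 0.348 or more, where 71 of all tested genes were called (0.371%). In *Pax4* R192H mice *Mt1* fell from 73.2, 70.9 and 70.3 CPM on SCD to 24, 28.9 and 25.9 on HFD, a log2 fold change of -1.45 (SE 0.14, adjusted p = 0.000108). *Slc30a8* fell by 0.90 on the log2 scale (SE 0.14, adjusted p = 0.00141). *Mt2* fell from 3.92, 5.08 and 6.15 CPM to 3.04, 3.27 and 1.64, a log2 fold change of -0.93 (SE 0.28, adjusted p = 0.0338). *Slc30a1* fell from 15.1, 16.9 and 13.2 CPM to 11.3, 10.6 and 8.24, a log2 fold change of -0.59 (SE 0.16, adjusted p = 0.0205). Called genes were 15.7% of all tested genes in this comparison and those called lower 5.91%. The calls of *Mt2* and *Slc30a1* were each lost in 4 of 6 fits that left out 1 mouse. *Mt3* had a log2 fold change of 1.66 (95% interval 0.48 to 2.84, adjusted p = 0.0524), and it was called higher on HFD by DESeq2 (adjusted p = 0.0328) and in a fit of only these 2 groups (adjusted p = 0.0341). With the acinar markers as a covariate only *Mt1* of the 4 kept its call, with a log2 fold change of -1.15 and an adjusted p of 0.0375, and the acinar sums of these 2 groups did not overlap either.

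In the second table none of the 9 genes was called in *Pax4* βiKO islets against control islets by edgeR, where 18 of 20167 tested genes were called (0.0893%). By the unadjusted p-value 4 of the 9 genes were below 0.05, *Slc30a8*, *Mt1* and *Mt2* with lower and *Slc39a7* with higher values, against 12.8% of all tested genes, 6.62% with lower and 6.23% with higher values. The groups did not overlap in 5 of the 9 genes, against 32.6% of all tested genes. *Slc30a8* was at 1153 and 1211 CPM in controls and at 899.5, 931 and 879 CPM in βiKO mice. The groups did not overlap, and the log2 fold change was -0.39 (SE 0.10, 95% interval -0.61 to -0.17, adjusted p = 0.229). *Mt1* was at 131 and 89.2 CPM in controls and at 59.1, 77.8 and 81 CPM in βiKO mice, with a log2 fold change of -0.60 (SE 0.18, 95% interval -1.03 to -0.17, adjusted p = 0.282). Its estimate rested in part on control replicate 1, the mouse with the acinar sum of 107200 CPM: without that mouse it was -0.30, and without control replicate 2 it was -0.86. *Mt2* overlapped between the groups, at 13.5 and 8.29 against 4.82, 8.74 and 5.06 CPM, with a log2 fold change of -0.81 (SE 0.31, adjusted p = 0.338). Leaving out 1 mouse at a time gave *Mt2* log2 fold changes from -1.14 to -0.42. *Mt3* was at 0.372 and 0.564 CPM in controls and at 0.728, 0.847 and 1.32 in βiKO mice, with a log2 fold change of 1.03 (95% interval -0.02 to 2.09).

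*Slc39a7* and *Slc30a5* had positive estimates in βiKO islets that were not called. *Slc39a7* was at 144 and 163 CPM in controls and at 205, 167 and 218 CPM in βiKO mice, without overlap, with a log2 fold change of 0.35 (SE 0.13, adjusted p = 0.317). *Slc30a5* was at 131 and 158 CPM against 169, 165 and 168, with a log2 fold change of 0.21 (SE 0.10, adjusted p = 0.419). Without 1 mouse at a time the *Slc30a5* estimate ran from 0.08 to 0.36. *Slc30a7*, *Slc30a1* and *Slc39a14* overlapped between the groups, with log2 fold changes of 0.15, -0.09 and 0.14. DESeq2 called *Mt1* in this comparison, with an adjusted p of 0.0236, and 249 genes in all. Because controls and βiKO mice share no sample with the first table, the estimates can be set side by side: *Slc30a8* was at -0.61 in *Pax4* R192H on HFD and -0.39 in βiKO, *Mt1* at -1.12 and -0.60, *Mt2* at -1.08 and -0.81, *Mt3* at 0.92 and 1.03, *Slc30a1* at -0.41 and -0.09, *Slc30a5* at 0.26 and 0.21, *Slc30a7* at 0.46 and 0.15, *Slc39a7* at 0.13 and 0.35, and *Slc39a14* at -0.01 and 0.14. Whether the effects differ between the 2 models was not tested.

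**Figure D3:**
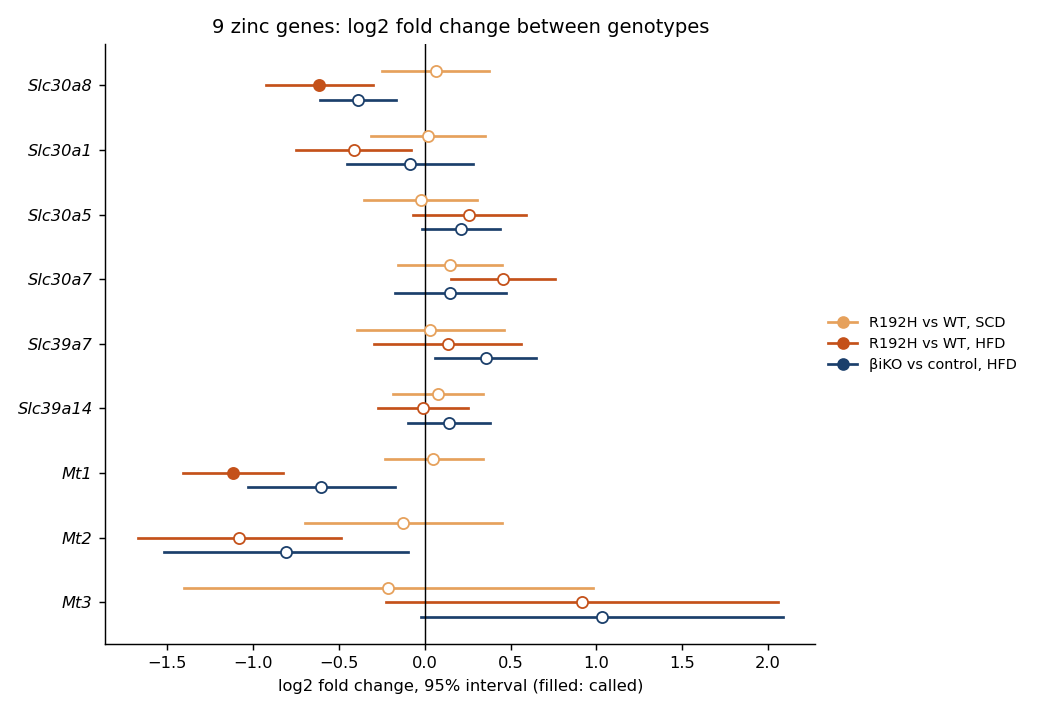
Log2 fold change of the 9 genes between genotypes, with bars for the 95% interval and filled points for called genes, for *Pax4* R192H against wildtype on SCD and on HFD and for *Pax4* βiKO against control on HFD. Filled points appear for *Slc30a8* at -0.61 and *Mt1* at -1.12 on HFD; all intervals on SCD include 0.

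The other genes of the SLC30 and SLC39 families, *Mt4*, the metal-responsive factor *Mtf1*, the zinc efflux gene *Tmem163* and the zinc-sensing receptor gene *Gpr39* made up 22 further genes, of which 16 were tested in the first table and 17 in the second. On HFD 1 of the 16, *Slc39a11*, rose in *Pax4* R192H islets, where 1.46% of all tested genes rose, and 0 fell, with a median log2 fold change of 0.13 against -0.01 over all tested genes. *Slc39a11*, an importer gene of the same family as *Slc39a7*, was at 12.7, 16.3 and 14.9 CPM in wildtype and at 36.9, 37.5 and 33.4 CPM in *Pax4* R192H mice on HFD, a log2 fold change of 1.296 (SE 0.12, adjusted p = 0.0006). Its values on SCD were 9.87 to 10.5 CPM in wildtype and 10.5 to 11.7 in *Pax4* R192H mice, and its interaction was 1.17 (adjusted p = 0.0264). With the acinar markers as a covariate neither was called, at 1.23 (adjusted p = 0.124) on HFD and 1.10 (adjusted p = 0.50) for the interaction. The interaction was called in 2 of the 12 fits that left out 1 mouse. In *Pax4* R192H mice 3 of the 16 rose from SCD to HFD, *Slc39a11* by a log2 fold change of 1.68, *Slc39a13* by 0.85 and *Slc30a6* by 0.51, and 0 fell, where 9.75% of all tested genes rose. In wildtype mice 0 of the 16 were called between the diets, and 0 were called between the genotypes on SCD.

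In βiKO islets 0 of the 17 were called, and *Slc39a11* was at 19.3 and 17.7 CPM in controls against 34.1, 24.7 and 26 in βiKO mice, a log2 fold change of 0.61 (SE 0.15, adjusted p = 0.233). *Mtf1* was at 25.6, 16.2 and 20.2 CPM in wildtype and at 18.3, 16.5 and 14.6 in *Pax4* R192H mice on HFD, with a log2 fold change of -0.33 (95% interval -0.68 to 0.02, adjusted p = 0.351). *Slc39a5* had a log2 fold change of 1.25 on HFD (SE 0.38, adjusted p = 0.104). It was at 18.1, 6.5 and 6.39 CPM in *Pax4* R192H mice and at 3.72 to 5.32 in wildtype mice on HFD, and at 3.86 to 7.25 in the 6 mice on SCD, so that 2 of the 3 *Pax4* R192H mice lay within the range of the mice on SCD. The mouse at 18.1 CPM was the one with the highest acinar sum, whose part in the value was not tested.

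**Figure D4:**
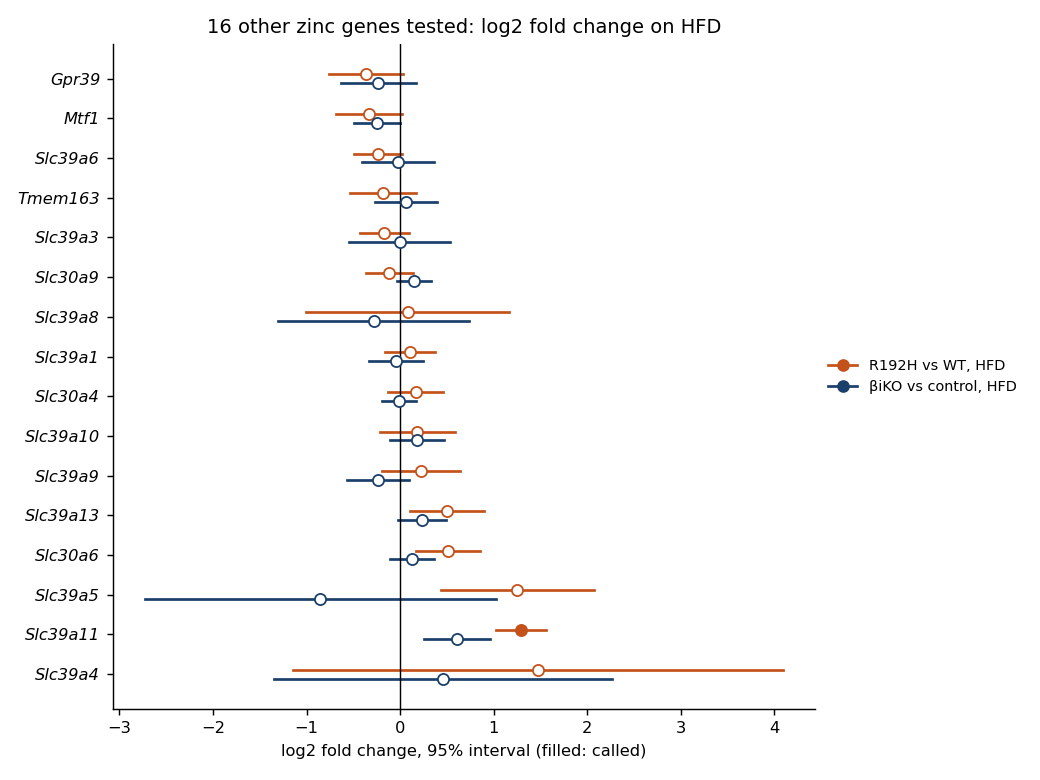
Log2 fold change on HFD of the 16 other zinc genes tested in the first table, with bars for the 95% interval and filled points for called genes, for *Pax4* R192H against wildtype and *Pax4* βiKO against control. The 1 filled point is *Slc39a11* in *Pax4* R192H islets, at 1.296, while its βiKO estimate is 0.61.

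Genes of neighbouring systems were counted from lists chosen by name, in the same HFD comparison. Over all tested genes 1.46% rose and 0.82% fell there. Of 12 insulin granule genes 0 were called in *Pax4* R192H against wildtype, with a median log2 fold change of 0.34, 10 positive and 2 negative estimates. The lowest was that of *Sytl4*, a granule docking gene named after its values were seen, at 268 to 302 CPM in wildtype and 148 to 217 in *Pax4* R192H mice, a log2 fold change of -0.63 (SE 0.15, adjusted p = 0.0503), close to that of *Slc30a8*. Of 8 β cell markers, which share *Ins1*, *Ins2* and *G6pc2* with that list, 1 fell, the glucose transporter gene *Slc2a2* (log2 fold change -1.28, adjusted p = 0.00588), and 0 rose. The 8 markers had a median of -0.39 against -0.01 over all tested genes, with 5 negative and 3 positive estimates. In 4 of the 8, *Slc2a2*, *Mafa*, *Nkx6-1* and *Ucn3*, each *Pax4* R192H mouse lay below each wildtype mouse, as in *Slc30a8*. Over all tested genes, the groups did not overlap in 22.9%, counting both directions. *Mafa*, a β cell transcription factor, was at 67.2 to 78.1 CPM against 123 to 193 (log2 fold change -1.20, adjusted p = 0.0823 by edgeR). In βiKO against control islets the 8 markers had a median of -0.41, with 6 negative estimates. The part of the markers' change in the values of *Slc30a8* was not tested. Metallothioneins are also known targets of NRF2 and of glucocorticoids: of 10 NRF2 targets 1 fell, *Nqo1* (-1.08, adjusted p = 0.0288), with 5 positive and 5 negative estimates from -1.08 to 1.37 and a median of -0.02. Of 7 glucocorticoid response genes 0 were called, with 6 negative estimates and a median of -0.38. Of 11 copper and iron handling genes 1 fell, the transferrin receptor gene *Tfrc* (-1.003, adjusted p = 0.0189), and the 11 had a median of 0.10. Of 12 ER stress genes, with a median of 0.67, 4 rose and 0 fell, the largest being *Creld2* (1.66, adjusted p = 0.00562), *Sdf2l1* (1.21, adjusted p = 0.0336) and *Hspa5* (0.88, adjusted p = 0.0344). None of these genes, of the 8 β cell markers or of the 25 acinar genes was called in βiKO against control islets. With the acinar markers as a covariate, in the fit that called 0 of all genes on HFD, none of the called genes of these lists kept its call. Markers aside, these lists and the other zinc genes held 7 called genes on HFD. Of these, 4 kept their call in a fit of only the 2 groups, and 2 to 6 when 1 mouse was left out.

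From SCD to HFD in *Pax4* R192H mice 9.75% of all tested genes rose and 5.91% fell. The same lists held 7 insulin granule genes that rose and 1 that fell of 12, the largest being *Ptprn* (1.19, adjusted p = 0.000769), *Ins2* (1.17, adjusted p = 0.0056) and *Chgb* (1.08, adjusted p = 0.0102). The gene that fell was *Sytl4* (-0.75, adjusted p = 0.00568), where *Slc30a8* was at -0.90. Of the 11 copper and iron genes 3 rose and 3 fell, led by *Tfrc* (-1.27), *Atox1* (1.03) and *Atp7a* (-0.90). Of the 12 ER stress genes 7 rose, led by *Creld2* (2.55), *Sdf2l1* (1.80) and *Manf* (1.24), and of the 10 NRF2 targets 2 rose and 1 fell, *Nqo1* (-1.36), *Srxn1* (0.71) and *Sqstm1* (0.52). Of the 7 glucocorticoid response genes 1 fell, *Tsc22d3* (-0.68). Of the 28 called genes of these lists and the other zinc genes, 3 kept their call with the acinar markers as a covariate. These lists held no called gene between the genotypes on SCD, for the interaction, or between the diets in wildtype mice. Of the marker lists, 2 of 7 tested immune genes fell between the diets in wildtype mice, *Lyz2* (-2.23) and *Ptprc* (-1.90). There 71 of all 19137 tested genes were called (0.371%). In *Pax4* R192H mice 22 of 25 acinar genes rose from SCD to HFD, with a median log2 fold change of 1.84. Of 8 β cell markers 2 rose and 1 fell, and 2 of 7 α cell, 2 of 8 duct and 1 of 6 endothelial markers rose.

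Among cell type markers on HFD, 8 of 25 acinar genes rose in *Pax4* R192H islets and the remaining 17 had positive estimates, the largest called being *Try5* (1.84, adjusted p = 0.0266), *Pnliprp1* (1.65) and *Cela3b* (1.62). Of 7 α cell markers 2 rose, *Gc* (1.52, adjusted p = 0.0414) and *Ttr* (1.16, adjusted p = 0.00731), while *Gcg* was at -0.06. Of 8 duct markers 1 rose, *Krt18* (0.63), and 0 of 1 PP cell, 4 δ cell, 6 endothelial, 7 stellate and fibroblast and 7 tested immune markers were called. In the βiKO comparison all 25 acinar estimates were negative and the acinar sums overlapped, at 24000 and 107200 CPM in controls and 83140, 16980 and 22210 in βiKO mice. The βiKO log2 fold change of *Slc30a8* with the acinar markers as a covariate was -0.40 (SE 0.08, adjusted p = 0.262 by edgeR) against -0.39 without it, that of *Mt1* -0.59 against -0.60 and that of *Mt2* -0.81 in both fits, none of them called. The highest acinar sums of the 5 mice were those of control replicate 1 and βiKO replicate 1, in which *Slc30a8* was at 1153 and 899.5 CPM.

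**Figure D5:**
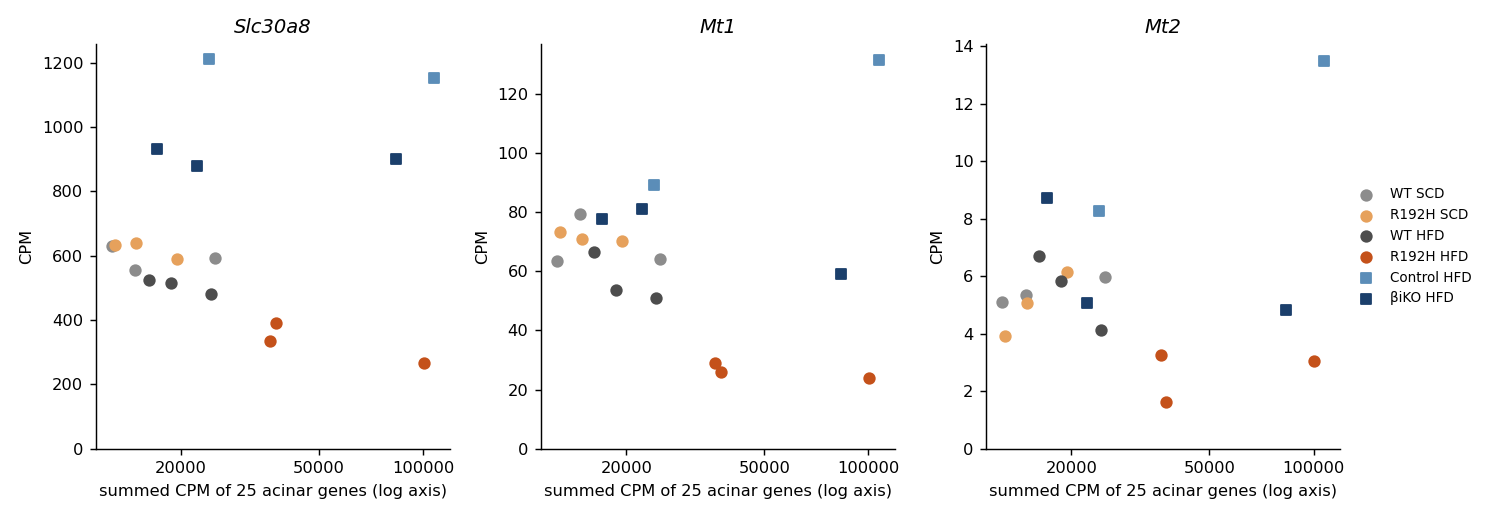
CPM of *Slc30a8*, *Mt1* and *Mt2* in each mouse against the summed CPM of 25 acinar genes on a log axis, with circles for the first table and squares for the second. *Pax4* R192H mice on HFD lie to the right of the other mice of their table, at 36150 to 100500 CPM, and below them for *Mt1*. In the second table *Slc30a8* is at 1153 and 1211 CPM in controls and at 879 to 931 in βiKO mice, whose acinar sums overlap.

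The genes most like *Slc30a8* and *Mt1* over the 12 mice of the first table were found by the mean absolute difference of log2 CPM, each gene centred on its own mean, among 6983 genes with a mean of at least 10 CPM. For *Slc30a8* they were *Avl9*, *Jade3* and *Vps13a*, at 0.0671, 0.0778 and 0.0879, where the median over all genes was 0.369. For *Mt1* they were *Zfp568*, *Tnik* and *Slc2a2*, at 0.151, 0.183 and 0.189, where the median was 0.544. All 12 libraries enter every value, so group differences in depth, scaling and cell makeup are shared by the genes compared. In the second table the same pairs ranked 1592, 735 and 513 of 8966 genes for *Slc30a8* and 4583, 309 and 93 for *Mt1*.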

How the data were processed

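Islet RNA was sequenced as stranded total RNA, and the authors deposited gene-level expected counts from STAR v2.7.1 on mm10, RSEM v1.3.3 and tximport. They are not scaled for depth, and they were rounded to whole numbers here. Totals were 24268157 to 42679645 counts in the first table and 28618835 to 31887537 in the second. A count of 3 equalled 0.0724 to 0.126 CPM on the TMM scale, which covers counting error only. GENCODE M21 gave symbols, coordinates and exon lengths, and it named 65.8% and 66.7% of the identifiers.

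Samples were grouped by their names, and no sample was left out. Each table was normalised with TMM and fitted on its own with edgeR v4.0.16 in R v4.3.3, by the quasi-likelihood F-test with 1 coefficient per group after filterByExpr with a minimum count of 10. Intervals are 95% and use the moderated degrees of freedom. The 95% intervals and p-values rest on the spread between mice within groups. That spread was shared by all groups of a table and moderated over genes, so it is not the spread of any single group. No pair of samples in a group was identical. Motifs were searched in promoters from RefSeq.

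The 9 genes and all lists were chosen with earlier results of these data known. All 9 genes are reported in every comparison, and from each list the counts and up to 3 called genes of largest change. The cell type markers are given in part, and between the diets in *Pax4* R192H mice by their counts only. *Mtf1*, *Slc39a5*, *Gcg*, *Sytl4*, *Mafa*, *Nkx6-1*, *Ucn3* and the uncalled βiKO values of *Slc39a11* were named after their values were seen. Lists covered other zinc genes, copper and iron handling, insulin granule, NRF2 targets, glucocorticoid response, ER stress and cell type markers. Tests were run on simulated data first. Alternatives were DESeq2 v1.42.0, RLE scaling, omitting the filter, requiring 10 counts in all mice of a table, a replicate block, leaving out the 2 most abundant genes, an acinar covariate, only the groups compared, and leaving out each mouse.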

Additional observations from a re-analysis of the deposited data

Results flagged for a closer look

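The effect of genotype differed between the diets for *Mt1*, by a test of the interaction. Its log2 fold change of *Pax4* R192H against wildtype was 0.05 on SCD and -1.12 on HFD, a difference of -1.17 (SE 0.19, adjusted p = 0.0421 by edgeR), and all 3 *Pax4* R192H mice on HFD were below the other 9 mice of the table. The acinar sum was also highest in these 3 mice, and its part in the difference was not tested apart from the covariate fit, in which the interaction was -0.89 with an adjusted p of 0.607.

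*Slc39a11*, one of the other zinc transporter genes, differed in the opposite direction, at 0.12 on SCD and 1.296 on HFD, an interaction of 1.17 (adjusted p = 0.0264 by edgeR), with all 3 *Pax4* R192H mice on HFD above the other 9. These are the same 3 mice with the highest acinar sums of the table, and with the acinar covariate the interaction was 1.10 with an adjusted p of 0.50.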

How the results depend on the processing

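Of 670 alternative values of single genes, 567 were labelled as kept. For a fold change this meant the same direction and the same side of the threshold, so an uncalled gene was kept by staying uncalled. The 670 also cover levels per kb and likeness values, which have no threshold. Among called values, the interaction of *Mt1* kept its call in 7 of 19 alternatives and *Slc30a8* on HFD in 6 of 14. For *Mt1* on HFD the log2 fold change kept its direction in all 14 alternatives and its call in all but the acinar covariate. The call of *Slc30a8* on HFD was lost with the replicate block (-0.62, adjusted p = 0.0909), in a fit of only the 2 groups compared (-0.63, adjusted p = 0.0771) and with the acinar covariate. *Mt2* on HFD was called by DESeq2, with no filter and under the stricter filter of 10 counts per mouse. The cause of these changes was not tested. *Slc39a14* on HFD turned from -0.008 to 0.001 under that filter and to 0.001 with the acinar covariate.

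Of the 9 genes, 2 were called on HFD, against 1 with the replicate block, 1 with only the 2 groups and 0 with the acinar covariate. For the interaction 1 was called, against 2 by DESeq2, 0 with the block and 0 with the covariate. In *Pax4* R192H mice 4 were called between the diets, against 1 with the covariate and 5 by DESeq2 and with only the 2 groups, which added *Mt3* as higher, while the block lost *Mt2* (adjusted p = 0.0684), and in βiKO islets 0, against 2 with no filter and 1 by DESeq2. No filter called 261 genes on SCD against 0, 1279 on HFD against 437, 708 for the interaction against 25, 924 between the diets in wildtype mice against 71 and 697 in βiKO islets against 18. DESeq2 called 26, 947, 318, 547 and 249 genes in these. The stricter filter gave 80 for the interaction and 115 between the diets in wildtype mice. The acinar covariate gave 1 on SCD, 0 on HFD, 0 for the interaction, 45 between the diets in wildtype and 141 against 2996 in *Pax4* R192H mice. Only the 2 groups gave 1 on SCD and 1 between the diets in wildtype mice.

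Whether the replicate numbers pair the mice cannot be decided from these values. In the first table, deviations of same-numbered mice on HFD correlated at 0.193, 0.113 and -0.053, and not every mouse correlated best with its own number. In the second table same-numbered mice correlated at 0.073 and 0.038, and control replicate 2 also at 0.038 with βiKO replicate 3. The replicate block called 147 genes on HFD, 0 for the interaction, where *Mt1* was at -1.17 (adjusted p = 0.0952), 22 between the diets in wildtype mice and 88 in βiKO islets.

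Leaving out 1 mouse at a time gave 93 to 498 genes on HFD, with 140 without wildtype replicate 1, 93 without wildtype replicate 3, and 133, 107 and 157 without *Pax4* R192H replicates 1, 2 and 3. It gave 0 to 101 genes for the interaction, 5 to 125 between the diets in wildtype, 1706 to 2248 in *Pax4* R192H mice and 2 to 28 in βiKO islets. Of the 9 genes it called 1 to 2 on HFD, 0 to 1 for the interaction and 2 to 3 between the diets in *Pax4* R192H mice. Signs turned for *Slc39a14* on HFD (-0.038 to 0.049), for the interactions of *Slc39a7* (-0.085 to 0.279) and *Slc39a14* (-0.148 to 0.03), and for *Slc30a1* in βiKO islets (-0.20 to 0.055). Where 1 control was left, that mouse was assumed to vary like the βiKO mice. Depth limits *Mt3*, with 9 to 38 counts per mouse on HFD in the first table.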
